A study of Mus musculus with 12 samples.

Results

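Histone genes were read in poly(A) RNA of mouse splenic regulatory T cells (Treg). The members were the protein-coding genes whose names start with Hist1 to Hist4, H2af, H1f or H3f, 82 of the 41457 genes counted. Of these, 67 carry a Hist1, Hist2, Hist3 or Hist4 name and are called replication-dependent histone genes here, and 15 are called histone variant genes. The study deleted CD18, the shared β subunit of the β2-integrins, in Treg. Splenic RFP+CD4+ T cells were sorted from CD18Foxp3 mice (CD18 fl/fl with Foxp3Cre, which deletes exon 3 of Itgb2 in cells that express Foxp3) and from CD18wt littermates (CD18 wt/wt). Both genotypes carried the Foxp3Cre transgene and an RFP reporter that Cre switches on, so the controls contained Cre as well. The cells were cultured overnight in 5 U/mL IL-2, either alone (unstimulated) or with 1 µg/mL anti-CD3 and 2 µg/mL anti-CD28 (stimulated). There were 3 libraries in each of the 4 groups, and the ages of the mice were not given in the sources used here.

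Replication-dependent histone genes supply the bulk histones of S phase. They lie in clusters, mostly lack introns, and their main mRNAs end a few bases after a stem-loop that is bound by Slbp, with no poly(A) tail. A method that selects poly(A) RNA therefore captures them poorly, although some of these genes also produce polyadenylated transcripts, often from a site further downstream. Variant genes such as H2afz (H2A.Z), H3f3a and H3f3b (H3.3) and H1f0 (H1.0) are transcribed outside S phase as well and yield ordinary polyadenylated mRNA. Levels below are therefore those of captured poly(A) RNA, and total histone mRNA was not measured. In bulk RNA, fewer cells of a type and less RNA per cell cannot be told apart.

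The stem-loop was looked for in the transcripts of GENCODE M21 (GRCm38) as 16 bases after the stop codon. It had to hold a perfect stem of 6 base pairs, whose first strand starts with GG and ends with T. The loop had to hold 4 bases and start with TT or TC. It was matched in 46 of 67 replication-dependent genes (68.7%), in 1 of 15 variant genes and in 75 of 21901 protein-coding genes (0.342%). Of the replication-dependent genes without a match, 13 had transcripts annotated to end at the stop codon, where nothing could be searched. Of the 54 with bases after the stop codon, 46 had a match. The sites below are given 5′ to 3′ on the coding strand with the stem-loop in capitals. They belong to members picked after their values were seen, 5 that were lower and 3 whose log2 fold changes were positive after stimulation.
Hist1h1c (chr13:23739507-23739532, + strand): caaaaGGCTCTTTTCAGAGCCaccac
Hist1h1d (chr13:23555782-23555807, + strand): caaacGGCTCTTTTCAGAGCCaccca
Hist1h1e (chr13:23621777-23621802, - strand): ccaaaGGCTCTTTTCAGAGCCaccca
Hist3h2a (chr11:58955167-58955192, + strand): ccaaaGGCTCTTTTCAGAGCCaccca
Hist3h2ba (chr11:58949344-58949369, + strand): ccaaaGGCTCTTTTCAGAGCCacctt
Hist1h3c (chr13:23745042-23745067, - strand): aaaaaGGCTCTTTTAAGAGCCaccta
Hist1h2bj (chr13:22043633-22043658, + strand): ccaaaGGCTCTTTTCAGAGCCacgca
Hist1h2ap (chr13:21833026-21833049, - strand): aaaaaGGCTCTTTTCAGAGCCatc
The stem-loops of these members were nearly the same, and the transcripts differed in what follows them. After the last base of the stem-loop, the annotated transcript ran on for 840 bases in Hist1h1c, 4884 in Hist1h1d, 1153 in Hist1h1e, 1643 in Hist3h2a and 169 in Hist3h2ba. It ended after 74 bases in Hist1h3c, 23 in Hist1h2bj and 3 in Hist1h2ap. Other members with a match are not shown. Among them Hist2h2aa2 was lower in CD18Foxp3 Treg with 35 bases after its stem-loop. Hist1h4i and Hist1h4d, with 330 and 770 bases, did not pass in either genotype. The single match among the variants was in H2afx, a variant known to yield both a stem-loop mRNA and a polyadenylated one.
H2afx (chr9:44335235-44335260, + strand): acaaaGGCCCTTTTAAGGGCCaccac
In H2afx 822 annotated bases followed the stem-loop.

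The libraries held 10665174 to 19005482 exon reads. Replication-dependent genes took 40.4 to 132 reads per 1000000 exon reads (RPM) and variant genes 1888 to 2243, so that replication-dependent genes made up 2.09% to 6.46% of the histone reads of a library. No read of 8 members was found in any library (4 replication-dependent: Hist1h2ah, Hist1h1t, Hist1h2ba and Hist1h2aa, and 4 variants: H1fnt, H2afb1, H2afb2 and H2afb3), and a count of 0 allows up to 3 reads per library, for counting error only. Between 19 and 32 of the 67 replication-dependent genes had no read in a given library, and 25 of all 82 members reached 100 reads over the 12 libraries together. A filter on low counts left 28 members to be tested for stimulation, 20 of them replication-dependent. The other replication-dependent genes held at most 162 reads each over all libraries. Histone genes resemble each other, and 28.7% to 58.6% of the replication-dependent reads and 57.5% to 67.8% of the variant reads of a library were placed uniquely, against 92.7% to 93.9% of all exon reads. The deleted gene Itgb2, read over the whole gene, was at 428 ± 39.2 TPM in unstimulated CD18wt and 240 ± 15.0 TPM in unstimulated CD18Foxp3 Treg, and at 330 ± 1.16 and 172 ± 36.7 TPM in stimulated Treg (SD, n = 3 each). Foxp3 was at 92.3 ± 17.5, 157 ± 21, 100 ± 2.44 and 187 ± 35.1 TPM (SD, n = 3) in unstimulated and stimulated CD18wt and in unstimulated and stimulated CD18Foxp3 Treg. Of the 6 Treg markers read, Il2ra rose with stimulation in both genotypes and Ctla4 and Ikzf2 in CD18Foxp3 Treg, while Cd4 (614 to 366 and 592 to 321 TPM on average) and Cd3e (369 to 265 and 394 to 268 TPM) fell in both.

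Stimulation was compared with culture in IL-2 alone within each genotype. In CD18wt Treg, 5 of the 19 replication-dependent genes tested were lower in stimulated cells and 1 was higher, and 2 of the 8 variants tested were lower and 0 higher. In CD18Foxp3 Treg, 8 of 16 replication-dependent genes were lower and 1 higher, and again 2 of 8 variants were lower and 0 higher. A gene counted as changed when it differed by 1.5-fold or more with an adjusted p (Benjamini-Hochberg, edgeR quasi-likelihood test) no higher than 0.01, and log2 fold changes are given ± their standard error. Over all genes tested, 14.9% were lower and 18.7% higher in CD18wt Treg, and 17.6% were lower and 20.9% higher in CD18Foxp3 Treg. The share of replication-dependent genes that were lower was thus 26.3% and 50%, and the share that were higher 5.26% and 6.25%. The median log2 fold change was -0.79 in CD18wt and -1.27 in CD18Foxp3 Treg over the replication-dependent genes, -0.29 and -0.41 over the variants, and 0.02 and 0.01 over all genes tested. These counts leave out 48 and 51 replication-dependent genes that had too few reads, and some of the genes tested, such as Hist1h3c, passed the filter only through the group in which they were high. Stimulated and unstimulated libraries did not overlap in TPM in 62% of all genes tested in CD18wt and 67.1% in CD18Foxp3 Treg. The share was 47.4% and 68.8% of the replication-dependent genes and 75% and 62.5% of the variants tested. A lack of overlap with stimulation, given below for single genes, is thus not particular to histone genes.

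By histone class, the 3 replication-dependent linker histone genes tested, of 6, moved in 1 direction. All had log2 fold changes between -3.29 and -2.81 in CD18wt Treg, where 2 passed the threshold, and between -3.86 and -2.18 in CD18Foxp3 Treg, where 3 passed. Among the H1 genes with too few reads to test, Hist1h1t had none. The mean TPM of Hist1h1b was higher with stimulation (0.885 to 1.34 in CD18wt and 1.04 to 2.19 in CD18Foxp3 Treg). That of Hist1h1a was lower (1.28 to 0.729 and 0.959 to 0.402). Of the H2A genes 1 of 5 was lower in CD18wt and 2 of 4 in CD18Foxp3 Treg, and of the H2B genes 2 of 5 and 3 of 4. Of the 12 H3 genes only 3 were tested in CD18wt and 1 in CD18Foxp3 Treg, and none of these was lower. Hist1h3c, tested in each genotype, passed the filter through its stimulated libraries. None of the 3 and 4 H4 genes tested passed the threshold, with log2 fold changes from -0.38 to 1.38 and from -0.44 to 0.89. By cluster, 3 of 13 tested genes of Hist1 on chromosome 13 were lower in CD18wt and 4 of 11 in CD18Foxp3 Treg, 0 of 4 and 2 of 3 genes of Hist2 on chromosome 3 were lower, and both genes of Hist3 on chromosome 11 were lower in each genotype.

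Hist1h1c encodes linker histone H1.2 (chromosome 13, 23738808 to 23740367 in GRCm38, 1 exon). It was at 36.1, 13.9 and 46.9 TPM in the unstimulated and at 6.99, 4.58 and 1.74 TPM in the stimulated CD18wt libraries, and at 27.6, 20.4 and 28.3 against 1.32, 3.23 and 2.25 TPM in CD18Foxp3 Treg. All stimulated libraries lay below all unstimulated ones, and 89.0% of the reads were placed uniquely. The log2 fold change was -3.29 ± 0.63 (adjusted p = 0.0034) in CD18wt and -3.86 ± 0.31 (adjusted p = 1.2e-05) in CD18Foxp3 Treg. The call in CD18wt Treg was lost without unstimulated replicate 1 or stimulated replicate 2.

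Hist1h1e, the gene of H1.4 (chromosome 13, 23620629 to 23622558), stood at 7.76, 2.23 and 11.7 TPM in unstimulated and 1.88, 0.993 and 1.31 TPM in stimulated CD18wt Treg. In CD18Foxp3 Treg its levels were 5.45, 3.96 and 5.50 TPM without and 0.736, 1.31 and 2.23 TPM with stimulation. The stimulated libraries again lay below the unstimulated ones, with log2 fold changes of -2.81 ± 0.62 (adjusted p = 0.0021) and -2.18 ± 0.44 (adjusted p = 0.0023). Hist1h1d, the gene of H1.3 (chromosome 13, 23553262 to 23560686), had few reads, 43, 11 and 60 against 10, 6 and 2 in CD18wt and 40, 20 and 26 against 0, 6 and 5 in CD18Foxp3 Treg. Its log2 fold change was -2.97 ± 0.89 (adjusted p = 0.015) in CD18wt, short of the threshold, and -3.07 ± 0.75 (adjusted p = 0.0065) in CD18Foxp3 Treg. When 1 library was left out at a time, the call of Hist1h1d in CD18Foxp3 Treg was kept only without stimulated replicate 1. That of Hist1h1e was lost without unstimulated replicate 3 or stimulated replicate 2 in CD18wt Treg, and without unstimulated replicate 1 or 3 or stimulated replicate 2 in CD18Foxp3 Treg.

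The 2 core histone genes of the Hist3 cluster fell in both genotypes. Hist3h2a, an H2A gene (chromosome 11, 58954685 to 58956830), was at 22.6, 18.5 and 23.2 TPM without and 11.2, 4.71 and 5.24 TPM with stimulation in CD18wt Treg, and at 18.2, 26.4 and 21.8 against 3.53, 5.11 and 2.73 TPM in CD18Foxp3 Treg. No unstimulated library of Hist3h2a reached down to a stimulated one. Its log2 fold changes were -2.03 ± 0.31 (adjusted p = 0.00016) and -2.91 ± 0.26 (adjusted p = 2.3e-05). Only 29.9% of the Hist3h2a reads were placed uniquely, and 31.2% of its 59-base words also occur in transcripts of other genes, most of all Trim17. Counted by uniquely placed reads alone, its log2 fold changes were -2.09 (adjusted p = 0.0011) and -2.60 (adjusted p = 0.00066, edgeR). Its neighbour Hist3h2ba, an H2B gene (chromosome 11, 58948920 to 58949533), was at 19.5, 12.6 and 10.4 TPM without and 5.07, 3.41 and 5.05 TPM with stimulation in CD18wt Treg, and at 20.3, 15.0 and 16.5 against 3.34, 1.47 and 0 TPM in CD18Foxp3 Treg. All reads of Hist3h2ba were placed uniquely. The log2 fold changes were -2.05 ± 0.51 (adjusted p = 0.0048) and -3.70 ± 0.70 (adjusted p = 0.0016), and in CD18wt Treg the call was kept only without unstimulated replicate 3 among the 6 fits that each left out 1 library, and lost with a replicate block (-2.02, adjusted p = 0.017).

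Among the other H2B and H2A genes, Hist1h2bc (chromosome 13, 23684199 to 23692908) was at 16.9, 5.26 and 11.7 TPM in unstimulated and 4.49, 0.452 and 1.51 TPM in stimulated CD18wt Treg. In CD18Foxp3 Treg it was at 6.55, 9.46 and 7.51 TPM and then at 0.683, 0.934 and 1.18 TPM. The groups of Hist1h2bc did not overlap in either genotype, with log2 fold changes of -2.88 ± 0.70 (adjusted p = 0.0047, kept only without unstimulated replicate 2 or stimulated replicate 1) and -3.42 ± 0.42 (adjusted p = 0.00013, kept without any 1 library). Hist2h2be (chromosome 3, 96221119 to 96223738), all of whose reads were placed uniquely, was at 8.25, 4.70 and 5.54 against 3.76, 0.532 and 3.04 TPM in CD18wt Treg, where its log2 fold change of -1.79 ± 0.55 (adjusted p = 0.016) missed the threshold, which it passed with a replicate block (-2.01, adjusted p = 0.0092). In CD18Foxp3 Treg it was at 5.30, 8.21 and 4.91 against 2.47, 1.37 and 1.64 TPM and passed with -2.09 ± 0.36 (adjusted p = 0.00093). Hist2h2aa2 also passed in CD18Foxp3 Treg, at -3.33 ± 0.74 (adjusted p = 0.0041), but none of its reads was placed uniquely, and its levels ranged from 15.8 to 31.6 TPM without and 0 to 5.68 TPM with stimulation. The call was lost without unstimulated replicate 1 or 3 or stimulated replicate 3. The near-identical Hist2h2aa1, also without a uniquely placed read, had log2 fold changes of -0.79 in CD18wt and 0.23 in CD18Foxp3 Treg, so the split of reads between this pair is uncertain. Hist2h2ac and the variant H1fx (H1.10) had too few reads for the stimulation tests. Hist2h2ac held 5, 4 and 12 reads in unstimulated CD18wt and 6, 0 and 13 in unstimulated CD18Foxp3 libraries and none in any stimulated library. H1fx held 0, 13 and 12 reads and 9, 7 and 16 reads without stimulation, and 2, 0 and 1 and 0, 0 and 2 with stimulation. Both were named after their values were seen.

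**Figure D1:**
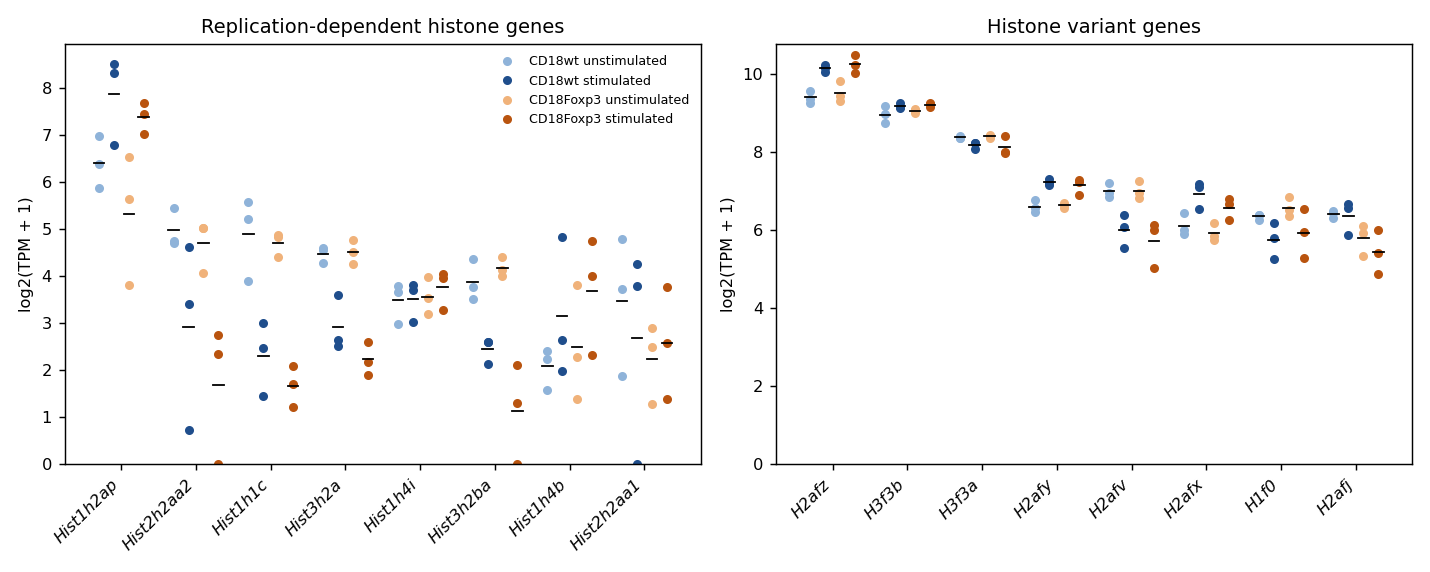
Level of the 8 replication-dependent (left) and 8 variant (right) histone genes with the highest mean TPM, as log2(TPM + 1), with 1 point per library, 3 libraries per group and a bar at the mean of the log values. Hist1h1c, Hist3h2a and Hist3h2ba sit lower in every stimulated library, whereas Hist1h2ap reaches up to 365 TPM after stimulation and overlaps with the unstimulated CD18wt libraries.

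The replication-dependent genes called higher had short annotated transcripts. Hist1h3c, an H3 gene (chromosome 13, 23744973 to 23745602), held 0, 0 and 2 reads in unstimulated and 54, 30 and 19 in stimulated CD18wt libraries, and 0, 3 and 17 against 49, 18 and 30 in CD18Foxp3 Treg. As TPM this was 0, 0 and 0.782 against 22.2, 8.30 and 5.85 in CD18wt, and 0, 0.826 and 4.34 against 12.3, 5.14 and 9.30 in CD18Foxp3 Treg. The groups did not overlap, and Hist1h3c passed the threshold in CD18wt Treg (log2 fold change 5.31 ± 1.10, adjusted p = 0.0014) but not in CD18Foxp3 Treg (2.04 ± 0.90, adjusted p = 0.081). Since 36.0% of its reads were placed uniquely, it was too low to be tested by those reads alone, and the call in CD18wt Treg was lost without unstimulated replicate 2 or stimulated replicate 1. Hist1h2bj, an H2B gene (chromosome 13, 22043214 to 22043676), held 1, 0 and 8 reads against 8, 18 and 24 in CD18wt and 0, 7 and 5 against 34, 39 and 39 in CD18Foxp3 Treg. Its log2 fold change was 1.99 ± 1.06 (adjusted p = 0.140) in CD18wt and 2.96 ± 0.74 (adjusted p = 0.0075) in CD18Foxp3 Treg, the latter kept only without stimulated replicate 1.

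Hist1h2ap, an H2A gene (chromosome 13, 21833026 to 21833507), took 53.2% of the replication-dependent reads of stimulated CD18wt and 48.0% of those of stimulated CD18Foxp3 Treg, against 15.9% and 11.7% without stimulation. Its level was 57.6, 82.2 and 125 TPM in unstimulated and 365, 320 and 110 TPM in stimulated CD18wt Treg, so that stimulated replicate 3 lay within the unstimulated range. In CD18Foxp3 Treg it was 49.1, 13.0 and 91.7 TPM without and 129, 206 and 173 TPM with stimulation, and the groups did not overlap. Neither difference passed the threshold, with log2 fold changes of 1.20 ± 0.56 (adjusted p = 0.130) and 1.36 ± 0.50 (adjusted p = 0.042). Without the filter on low counts it passed in CD18Foxp3 Treg (1.37, adjusted p = 4.3e-10) and not in CD18wt Treg (1.22, adjusted p = 0.279). Of its reads 14.0% were placed uniquely, and 92.9% of its 59-base words occur in other transcripts, most of all Hist1h2ao, so its level may include reads of other H2A genes. The H4 gene Hist1h4b (8.52% unique) ranged from 1.99 to 4.34 TPM without and 2.93 to 27.5 TPM with stimulation in CD18wt Treg and from 1.62 to 13.1 against 3.98 to 26.1 TPM in CD18Foxp3 Treg, with log2 fold changes of 1.38 and 0.89. Hist1h4i, an H4 gene with 67.0% unique reads, was at 11.7, 6.94 and 12.9 against 12.1, 7.19 and 13.1 TPM in CD18wt Treg and at 10.6, 8.11 and 14.8 against 8.69, 15.6 and 14.5 TPM in CD18Foxp3 Treg. Its log2 fold changes were -0.38 ± 0.46 and -0.16 ± 0.35, and the groups overlapped.

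Among the replication-dependent genes tested, log2 fold changes were mostly negative for those with a longer annotated transcript after the stop codon. For the others they were mostly positive. This length was not used to choose the genes. The genes were divided at 150 bases, a point set after the values were seen, so the split is given as a description with no test. The tested genes nearest to it were Hist1h3c with 114 bases and Hist3h2ba with 213. On the long side were 28 genes and on the short side 39. Of the 11 long genes tested in CD18wt Treg, 5 were lower and 0 higher, with a median log2 fold change of -2.03, and of the 9 tested in CD18Foxp3 Treg 7 were lower and 0 higher, with a median of -2.91. Of the short genes, 0 of 8 were lower and 1 higher in CD18wt Treg (median 1.35), and 1 of 7 was lower and 1 higher in CD18Foxp3 Treg (median 0.89). The positive values of the short genes are in part set by the filter on low counts, which some passed only or mostly through their stimulated libraries, such as Hist1h3c and Hist1h3i (0, 0 and 7 reads without and 25, 47 and 0 with stimulation in CD18wt Treg). Some long genes passed it only through their unstimulated libraries. In CD18Foxp3 Treg these included Hist1h2bc (54, 63 and 54 reads without and 5, 6 and 7 with stimulation) and Hist1h1d (40, 20 and 26 against 0, 6 and 5). The counts and medians of either side are therefore no support for the pattern. Against the pattern ran Hist2h2aa2 with 109 bases, which was lower in CD18Foxp3 Treg and at -1.96 ± 0.81 in CD18wt Treg (adjusted p = 0.078, edgeR, groups without overlap), and Hist2h2aa1 with as many bases at -0.79 in CD18wt Treg, both without uniquely placed reads. Among short genes with too few reads to test, Hist2h2ac (94 bases) held reads only in unstimulated libraries. Hist1h4f (74 bases) and Hist1h3b (96 bases) held reads only in stimulated ones. The long H4 genes Hist1h4i with 376 and Hist1h4d with 822 bases lay between -0.44 and -0.16, the long H3 gene Hist2h3c2 at -1.36 in CD18wt Treg did not pass, and the long H2B gene Hist1h2bq, with 69 reads in all and none placed uniquely, was at 0.43. Of the 8 replication-dependent genes lower in at least 1 genotype, 7 were long, against 11 of the 20 tested in at least 1 genotype. A stem-loop match was held by 6, against 46 of all 67 (68.7%). The poly(A) signal AATAAA lay in the last 50 bases of the transcript in 4, against 14 of all 67. The 67 include untested genes and 13 whose transcripts end at the stop codon, so these shares were not drawn from the tested genes alone. Hist1h2bc and Hist2h2be were the 2 without a match. The counts do not show where along a transcript the reads lay, so whether the reads of these genes came from before or after the stem-loop was not tested. A short transcript also has a larger share of words that other histone genes hold, and the part of misplaced reads in the pattern was not tested.

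**Figure D2:**
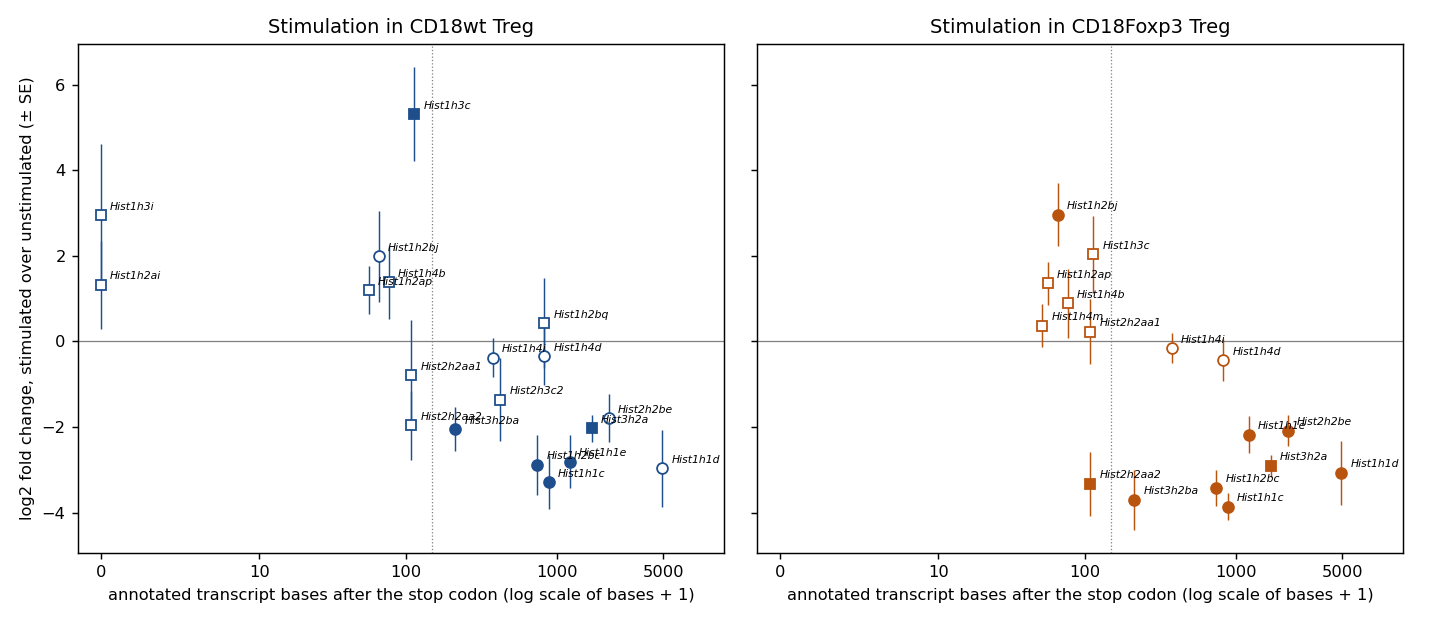
Log2 fold change (stimulated over unstimulated, error bars ± standard error) of each replication-dependent histone gene tested, against the bases that its longest annotated transcript has after the stop codon, on a log scale. Filled symbols passed the threshold, squares had under 50% of reads placed uniquely, and the dotted line marks 150 bases. All called genes to the right of the line lie below 0. To the left lie Hist2h2aa2, called lower in CD18Foxp3 Treg, and the genes called higher, Hist1h3c and Hist1h2bj. These higher genes passed the filter on low counts only through their stimulated libraries. Some of the lower genes passed it only through their unstimulated libraries, so neither sign is support for a pattern with length.

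The summed reads of the long and short genes were read in each library. Long replication-dependent genes took 75.1, 41.0 and 85.3 RPM in unstimulated and 27.7, 15.8 and 15.8 in stimulated CD18wt Treg, and 58.8, 59.3 and 60.2 against 12, 15.6 and 14.2 in CD18Foxp3 Treg. These groups did not overlap, and the means stood at a ratio of 0.294 and 0.234. Short genes took 23.2, 27.3 and 46.6 RPM without and 84.6, 69.0 and 24.6 with stimulation in CD18wt Treg, which overlapped. In CD18Foxp3 Treg they took 20, 12.1 and 30.2 against 33.6, 47.2 and 43.8, which did not, and the ratios of the means were 1.83 and 2.00. By all reads, most of this lay in Hist1h2ap. Without it, a choice made after the values were seen, the other 38 short genes took 13.0, 12.5 and 23.7 against 27.8, 17.0 and 7.96 RPM in CD18wt Treg and 11.1, 9.71 and 13.9 against 12.9, 15.4 and 16.4 RPM in CD18Foxp3 Treg. The groups overlapped in both genotypes, with ratios of 1.07 and 1.29. By uniquely placed reads the ratios were 0.271 and 0.221 for the long and 2.67 and 2.83 for the short genes, or 1.97 and 2.91 for the short genes without Hist1h2ap. All replication-dependent genes together took 99.5 ± 31.8 RPM without and 79.2 ± 36.3 with stimulation in CD18wt Treg, a difference within the spread, and 80.2 ± 9.58 and 55.5 ± 8.90 in CD18Foxp3 Treg (SD, n = 3 each), where the groups did not overlap, ratios of 0.795 and 0.692. On the per-length scale of TPM, which gives short transcripts more weight, the summed level was instead 294 ± 88.3 and then 423 ± 202 TPM in CD18wt Treg and 223 ± 55.2 and then 299 ± 56.3 TPM in CD18Foxp3 Treg, ratios of 1.44 and 1.34. The direction of this sum therefore depended on the scale, and it was not tested.

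**Figure D3:**
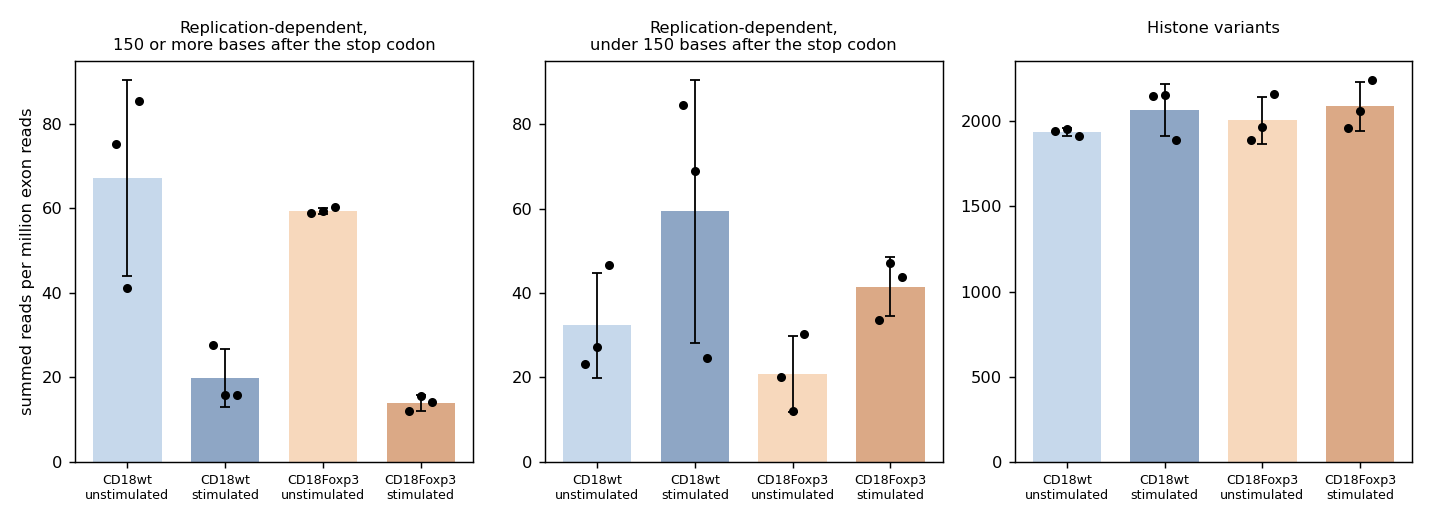
Summed RPM (exon reads scaled to library size) of the 28 long and 39 short replication-dependent genes and of the 15 variant genes in each of the 4 groups, with bars at the mean, error bars of 1 SD and 1 point per library (n = 3). The long genes drop from between 41.0 and 85.3 to between 12 and 27.7 with stimulation, the short genes have a higher mean, most of it from Hist1h2ap, and the variants stay between 1888 and 2243.

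The variants held most histone reads and moved less. Summed over the 15 genes, they took 1936 ± 22.3 RPM in unstimulated and 2065 ± 153 in stimulated CD18wt Treg, and 2005 ± 137 and 2089 ± 143 in CD18Foxp3 Treg (SD, n = 3), so that the group differences were within or close to the spread. H2afz was the most abundant member per length, at 620, 766 and 664 TPM in unstimulated and 1205, 1139 and 1076 TPM in stimulated CD18wt Treg, and at 635, 692 and 905 against 1048, 1204 and 1449 TPM in CD18Foxp3 Treg. The stimulated libraries all lay higher as TPM, but TPM moved the median gene up by 0.38 and 0.34 on the log2 scale relative to edgeR's normalization in the 2 genotypes. With that normalization the log2 fold change of H2afz was 0.34 ± 0.14 (adjusted p = 0.061) and 0.37 ± 0.15 (adjusted p = 0.067), and by the 12.9% of its reads that were placed uniquely it was 0.04 and 0.18. H2afy (macroH2A1) and H2afx had log2 fold changes of 0.23 and 0.45 in CD18wt and 0.16 and 0.30 in CD18Foxp3 Treg, and did not pass.

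H2afv, the gene of the second H2A.Z protein (chromosome 11, 6427229 to 6444443), fell in both genotypes. It was at 115, 123 and 149 TPM in unstimulated and 83.9, 66.6 and 46.1 TPM in stimulated CD18wt Treg, and at 113, 123 and 154 against 31.8, 63.5 and 69.0 TPM in CD18Foxp3 Treg. All its reads were placed uniquely and the groups did not overlap. The log2 fold changes were -1.38 ± 0.22 (adjusted p = 0.00035) and -1.62 ± 0.25 (adjusted p = 0.00052), and the call was kept in all 6 fits that left out 1 library, in each genotype. H2afv and H2afz, which encode nearly the same histone, thus had log2 fold changes of opposite sign, although that of H2afz did not pass.

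H1f0 encodes H1.0, a linker histone known from cells that have left the cycle (chromosome 15, 79028450 to 79030504). It was at 83.7, 83.2 and 76.4 against 72.0, 54.8 and 37.3 TPM in CD18wt Treg and passed with a log2 fold change of -0.97 ± 0.21 (adjusted p = 0.002). In CD18Foxp3 Treg it was at 90.3, 82.4 and 114 against 38.0, 60.8 and 92.9 TPM and its log2 fold change of -0.95 ± 0.27 (adjusted p = 0.014) did not pass. Of the H3.3 genes, H3f3a had log2 fold changes of -0.58 ± 0.14 (adjusted p = 0.0032) in CD18wt Treg, just under the fold threshold, and -0.62 ± 0.14 (adjusted p = 0.0048) in CD18Foxp3 Treg, just over it. Its levels were 341, 330 and 328 against 304, 304 and 272 TPM in CD18wt and 331, 343 and 347 against 342, 258 and 254 TPM in CD18Foxp3 Treg, where the groups overlapped and the call was kept only without stimulated replicate 1. H3f3b had values of -0.19 and -0.20 and did not pass. H2afj was at 79.0, 89.2 and 86.3 against 93.5, 101 and 58.4 TPM in CD18wt and at 59.7, 39.7 and 68.7 against 28.5, 64.0 and 42.0 TPM in CD18Foxp3 Treg, with log2 fold changes of -0.40 and -0.69 that did not pass.

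Genes that make or handle histones and DNA in S phase were read in the same comparisons. Of 30 genes of DNA replication and S phase, 29 rose in CD18wt and 29 in CD18Foxp3 Treg and none fell, with median log2 fold changes of 2.28 and 2.20. The exception was E2f2, at -0.05 and -0.62. The largest in CD18wt Treg were the origin licensing factor Cdc6 at 3.96, the mitotic kinase Cdk1 at 3.93, cyclin A2 (Ccna2) at 3.75, the ribonucleotide reductase subunit Rrm2 at 3.58 and the polymerase Pole at 3.24. A list of 25 genes covered the transcription, processing and decay of histone mRNA, and also held the cyclins Ccne1 and Ccne2 and the kinase Cdk2. Of the list 24 and 25 were tested, 11 rose in each genotype, and 1 fell in CD18wt and none in CD18Foxp3 Treg. Slbp, which binds the stem-loop, rose from 26.1 ± 1.47 to 67.2 ± 4.69 TPM in CD18wt and from 27.6 ± 3.46 to 70.3 ± 3.06 TPM in CD18Foxp3 Treg (SD, n = 3), with log2 fold changes of 0.96 (adjusted p = 4.2e-05, edgeR) and 0.99 (adjusted p = 0.00011, edgeR). Npat, the coactivator of the histone clusters and a substrate of cyclin E with Cdk2, rose by 0.69 and 0.82, and Casp8ap2 (FLASH), which takes part in the cleavage after the stem-loop, by 0.77 and 0.87 on the log2 scale. Ccne2, Ccne1, Cdk2 and Srrt rose by 4.59, 3.31, 1.89 and 1.02 in CD18wt Treg, and the gene that fell was Tut4, a terminal uridylyltransferase, at -0.61. Of 28 histone chaperones, 12 rose in CD18wt Treg and none fell, and 11 rose and 1 fell in CD18Foxp3 Treg. The chaperones with the largest rise in CD18wt Treg were Chaf1a (3.67) and Chaf1b (2.24) of CAF-1, Mcm2 (2.13), Ipo4 (2.08) and Asf1b (2.02), which handle H3 and H4. The chaperone that fell in CD18Foxp3 Treg was the H3.3 chaperone Daxx, at -0.83.

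**Figure D4:**
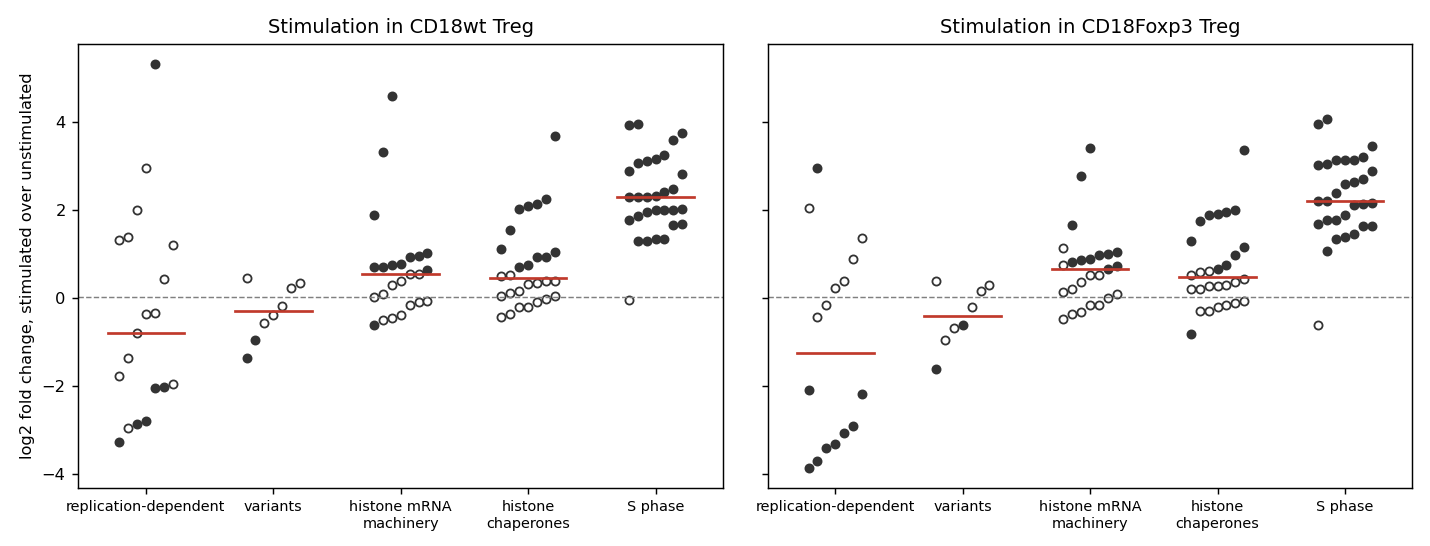
Log2 fold change (stimulated over unstimulated) of the histone genes tested and of 3 lists of related genes in each genotype, with filled points for genes past the threshold, red bars at the median of each set and a dashed line at the median of all genes. The S phase genes lie almost all above 0 (median 2.28 and 2.20), while the replication-dependent genes spread from -3.86 to 5.31.

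RNA without a poly(A) tail was read as a measure of what else passed the selection. Of 10 such genes (Rn7sk, Rmrp, Rpph1, Terc and others) 9 had reads, and their sum was 7.14 to 13.0 RPM in unstimulated and 12.2 to 17.4 in stimulated CD18wt Treg, and 8.00 to 8.77 and 5.49 to 8.22 in CD18Foxp3 Treg. None of the 4 that could be tested passed the threshold in either genotype. Intron reads were 3.32% to 5.99% of gene reads. The part of tail-less RNA in the levels of the short histone genes was not tested. Markers of other cells moved with stimulation as well. Cd79b, a B cell receptor component, fell in both genotypes, from 26.4 ± 2.56 to 12.7 ± 4.59 TPM in CD18wt and from 26.1 ± 3.99 to 9.57 ± 1.80 TPM in CD18Foxp3 Treg (SD, n = 3 each). The myeloid markers summed to 116 to 205 TPM, with overlap between the groups, and Lyz2 fell in CD18wt Treg. The cytotoxic lymphocyte markers summed to 76.6 to 146 TPM, and 2 of the 3 tested (Cd8b1 and Klrb1c) fell in each genotype. The most abundant of them, Nkg7, was at 64.2, 51.1 and 57.1 against 91.1, 134 and 73.6 TPM in CD18wt and at 80.4 ± 22.1 against 101 ± 4.81 TPM in CD18Foxp3 Treg (SD, n = 3), with log2 fold changes of 0.42 and -0.03 that did not pass. The erythroid markers summed to 0.0813 to 32.6 TPM and none could be tested for stimulation. No gene of these lists passed between the genotypes. The part of other cells in the histone levels was not tested.

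The genotypes were then compared within each culture. None of the 25 histone genes tested in unstimulated and none of the 24 tested in stimulated Treg passed the threshold (edgeR quasi-likelihood test), where 0.135% and 0% of all genes tested did. At an unadjusted p under 0.05 there were 0 replication-dependent genes and 1 variant in unstimulated Treg and 1 of each kind in stimulated Treg, against 9.59% and 4.89% of all genes tested. The lowest adjusted p of a member was 0.185 and 0.650. The variant was H2afj in both cultures. Its unstimulated CD18Foxp3 libraries (39.7 to 68.7 TPM) lay below all unstimulated CD18wt libraries (79.0 to 89.2 TPM), and the stimulated libraries overlapped. Its log2 fold change (CD18Foxp3 over CD18wt) was -0.63 ± 0.16 (adjusted p = 0.185) in unstimulated and -0.93 ± 0.30 (adjusted p = 0.813) in stimulated Treg. Without the filter on low counts H2afj passed in both cultures, at -0.62 (adjusted p = 2.1e-05) and -0.92 (adjusted p = 0.0023). Over all members tested, the groups did not overlap in 1 of 25 in unstimulated and 3 of 24 in stimulated Treg, against 15.6% and 9.43% of all genes tested.

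In stimulated Treg the replication-dependent gene with an unadjusted p under 0.05 was Hist1h4m, an H4 gene with 11.8% unique reads. It held 2, 3 and 2 reads in CD18wt and 13, 29 and 13 in CD18Foxp3 libraries (log2 fold change 2.71 ± 0.75, adjusted p = 0.650). Hist1h2bj was at 4.48, 6.77 and 10.1 TPM in stimulated CD18wt and 11.6, 15.2 and 16.4 TPM in stimulated CD18Foxp3 Treg, without overlap, and Hist3h2ba at 3.41 to 5.07 against 0 to 3.34 TPM. Their log2 fold changes of 1.01 ± 0.51 and -1.39 ± 0.87 had an adjusted p of 0.998 each (edgeR). Hist1h2ap, the most abundant replication-dependent gene, had a log2 fold change of -0.81 ± 0.71 between the genotypes in unstimulated and -0.66 ± 0.40 in stimulated Treg, and Hist1h1c of -0.37 ± 0.45 and -0.97 ± 0.61. Standard errors of this size leave room for genotype differences of more than 1.5-fold in these genes.

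The difference between the genotypes in their response to stimulation was tested as an interaction, since passing in 1 genotype and not in the other does not show a difference. Of the 26 replication-dependent genes and 9 variants tested, 0 passed, as did 0% of all genes. The lowest adjusted p was 0.987, and 1 member had an unadjusted p under 0.05. The interaction of Hist1h3c, which passed in CD18wt alone, had a log2 value of -3.29 ± 1.67 (adjusted p = 0.987), and that of Hist3h2ba was -1.66 ± 0.86 (adjusted p = 0.987). The 2 stimulation comparisons use different libraries throughout.

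Promoters of the members, from RefSeq (GRCm38.p6) and spanning 250 bases before to 50 after the start, were searched on both strands, and 76 of 82 members had one. CCAAT was found in 85.5% of the 62 replication-dependent and 71.4% of the 14 variant promoters, against 42.3% of all 17492. Every H1, H2A, H2B and H3 promoter of the replication-dependent genes held it, but 3 of 12 H4 promoters. TATAAA was in 56.5% of the replication-dependent, 7.14% of the variant and 14.8% of all promoters. ATTTGCA, a part of the octamer element, was in 38.9% of H2A and 43.8% of H2B promoters and in none of the H1, H3 or H4 promoters of the replication-dependent genes. It was in 7.14% of the variant promoters (H3f3b alone) and in 4.32% of all. TTTCGCG, which resembles an E2F site, was in 21% of replication-dependent, no variant and 1.35% of all promoters. Some H2A and H2B genes lie head to head and share a promoter, so these are not independent. The promoters of Hist1h1c, which was lower, and Hist1h3c, which was higher after stimulation, are shown on their coding strands, with CCAAT or its reverse complement in capitals.
Hist1h1c (chr13:23738557-23738856, + strand): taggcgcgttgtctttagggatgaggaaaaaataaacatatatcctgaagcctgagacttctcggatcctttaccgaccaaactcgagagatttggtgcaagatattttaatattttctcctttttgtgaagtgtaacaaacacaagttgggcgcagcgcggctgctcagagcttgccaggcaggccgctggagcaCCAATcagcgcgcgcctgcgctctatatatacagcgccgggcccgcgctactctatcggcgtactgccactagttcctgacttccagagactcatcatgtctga
Hist1h3c (chr13:23745472-23745771, - strand): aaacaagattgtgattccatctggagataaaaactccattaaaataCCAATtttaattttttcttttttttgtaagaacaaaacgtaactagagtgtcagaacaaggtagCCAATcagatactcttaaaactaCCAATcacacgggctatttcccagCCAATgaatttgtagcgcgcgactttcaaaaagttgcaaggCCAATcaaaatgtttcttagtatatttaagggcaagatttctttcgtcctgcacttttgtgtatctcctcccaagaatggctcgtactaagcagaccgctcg
Both held CCAAT and neither held the other motifs, so this pair did not differ in which motifs were present. Among other genes that changed, Hist1h1d and Hist1h1e, which were lower, held TATAAA. Hist1h2bj, which was higher in CD18Foxp3 Treg, held TTTCGCG. Whether the motifs separate lower from higher genes was not tested.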

How the data were processed

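The 12 libraries, 3 per group, came from RNA of sorted splenic Treg. Poly(A) RNA was selected from 10 ng of total RNA, amplified by 15 PCR cycles and read as 59-base single reads. The authors mapped the reads to GRCm38 in CLC Genomics Workbench and deposited read counts per gene (total and uniquely placed exon reads, not normalized) and other per-gene values, TPM, which divide exon reads by exon length and sum to the same total in every library. RPKM were not used. Whether reads were counted by strand is not given in the sources used here.

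Total exon counts were tested with edgeR 4.0.16 in R 4.3.3 (filterByExpr with a minimum count of 10, TMM, robust quasi-likelihood F-test, Benjamini-Hochberg adjustment over all genes tested), each comparison with its own 6 libraries and the interaction with all 12. Genes passed at 1.5-fold or more with an adjusted p no higher than 0.01. The standard error is the size of the log2 fold change divided by the square root of F. An exact two-sided permutation test of 3 against 3 libraries cannot go below p = 0.1. The labels call the libraries biological replicates, and chi-square values per gene between replicates, 6.11 to 64.3, were above counting error.

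The members, the gene lists and the tests were chosen with earlier results of these data known. Named were the 8 genes of each kind with the highest mean TPM, up to 5 genes past the threshold in each direction and comparison, members with under 50% unique reads as uncertain, and up to 5 genes of each list past the threshold, with Slbp, Npat and Casp8ap2 in any case. Other genes were named after their values were seen. The alternatives were uniquely placed reads, DESeq2 1.42.0, upper-quartile normalization, no filter, log2 TPM with a pseudocount of 1 or 0.1 in limma 3.58.1, a replicate block, 1 fit of all 12 libraries, a looser adjusted p of 0.05, and fits that each omitted 1 library. The division by transcript length and the sums without Hist1h2ap were added after seeing the data. Transcripts came from GENCODE M21, in which all 82 members had the coordinates of the deposited tables. The summed level of the B cell markers is not reported here. The fits were tested on simulated data. Python 3.11.15, pandas 2.3.3 and matplotlib 3.10.9 were used.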

Additional observations from a re-analysis of the deposited data

How the results depend on the processing

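In CD18wt Treg, replication-dependent genes lower after stimulation numbered 5, and 8 with DESeq2, 8 without a filter and 3 with limma on either TPM scale, and those higher numbered 1, and 0 with uniquely placed reads and 2 without a filter. In CD18Foxp3 Treg those higher numbered 1, and 3 without a filter, 0 with limma on log2(TPM + 0.1), 0 with all 12 libraries in 1 fit and 2 at an adjusted p of 0.05. Variants higher numbered 0, and 3 in CD18wt and 1 in CD18Foxp3 Treg with limma on either TPM scale, and variants lower numbered 2, and 1 with limma on TPM in each genotype, 1 with all 12 libraries in CD18wt Treg and 5 without a filter in CD18Foxp3 Treg. On TPM the share of calls that were higher, over all genes, went from 55.7% to 80.7% in CD18wt and from 54.3% to 75.9% in CD18Foxp3 Treg. Genotype calls were 0, and 1 without a filter in each culture. With 1 library left out, replication-dependent genes lower ranged from 1 to 5 in CD18wt (1 without stimulated replicate 2) and 5 to 8 in CD18Foxp3 Treg, those higher from 0 to 2 and 0 to 1, variants lower from 2 to 3 and 1 to 2, and all genotype and interaction calls and variants higher stayed at 0.

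Hist1h4i turned to 0.04 on both TPM scales in CD18wt and to 0.19 and 0.21 in CD18Foxp3 Treg, and H3f3b to 0.22 and 0.16. With 1 library left out Hist1h4b ranged from -0.05 to 1.84 in CD18wt Treg, Hist2h2aa1 from -1.64 to 0.16 and from -0.70 to 0.71, Hist1h4i in CD18Foxp3 Treg from -0.34 to 0.07, and Hist1h1c between the genotypes in unstimulated Treg from -0.75 to 0.04; none of these had passed. The summed level of replication-dependent genes, stimulated over unstimulated, was 0.469 in CD18wt and 0.389 in CD18Foxp3 Treg by uniquely placed reads, against 0.795 and 0.692 by all reads, and 1.44 and 1.34 by TPM, and that of the variants 1.07 and 1.04, against 0.993 and 0.944 by uniquely placed reads and 1.26 and 1.22 by TPM. With the division at 100 or 300 bases, chosen after seeing the data, the long genes gave 0.342 or 0.290 in CD18wt and 0.266 or 0.231 in CD18Foxp3 Treg and the short genes 2.30 or 1.65 and 2.66 or 1.68. The cause of these shifts was not tested.

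The deposited tables of the unstimulated and stimulated libraries with the same replicate number carry the same further number within a genotype, and the labels do not say whether it marks a mouse. The libraries with the same number did not all deviate together (correlations of deviations 0.26, -0.08 and -0.10 in CD18wt and 0.25, 0.07 and 0.31 in CD18Foxp3 Treg). With a replicate block, Hist3h2ba in CD18wt Treg no longer passed (-2.02, adjusted p = 0.017, edgeR) and Hist2h2be passed in its place (-2.01, adjusted p = 0.0092, edgeR), so that the count stayed at 5, H1f0 in CD18Foxp3 Treg passed (-1.02), variants lower in CD18Foxp3 Treg went from 2 to 3, and no other histone gene changed its call in the stimulation comparisons. Between the genotypes and in the interaction no histone gene passed with the block.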
